A study of Homo sapiens with 12 samples.

Results

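The transcripts of 10 glutathione S-transferase genes were followed in renal cell carcinoma cells before and after selection with sunitinib, a tyrosine kinase inhibitor. The members were taken by gene symbol from a table of raw counts and were 10 of 45478 genes. They comprised the mu class genes GSTM1, GSTM2, GSTM3, GSTM4 and GSTM5 together with GSTP1 (pi class), GSTO1 (omega), GSTA4 (alpha), GSTZ1 (zeta) and GSTK1 (kappa). The set was chosen by the counts of GSTM1, which was expressed in A498 and absent from 786-O, so its levels, and the differences between those lines in any member, are a description with no test. The 4 groups had 3 libraries each and were named after the lines A498 and 786-O, 2 clear cell renal cell carcinoma lines that are both deficient in the tumour suppressor VHL, and after the resistant line derived from each. Resistant A498 had been selected at 2 μM sunitinib and resistant 786-O at 4 μM, over 4 months or more than 20 passages with the drug in the medium throughout. The labels give the treatment of every group as none, while the sample codes of all 4 groups carry "veh", which they do not explain. Each resistant line, called a clone by the study, stands for a single selection, and no source used here says that replicates were separate cultures, so p-values measure the spread between these libraries, which may be technical.

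Glutathione S-transferases join the tripeptide glutathione to electrophilic compounds, among them drugs and products of lipid peroxidation, which makes these soluble and ready for export. The alpha, mu and pi classes carry most of this cytosolic detoxification, the omega class acts mainly as a thiol transferase, the zeta class isomerizes maleylacetoacetate in tyrosine breakdown, and the kappa enzyme resides in mitochondria and peroxisomes. GSTM1 is known for a common inherited deletion of the gene in humans, and GSTP1 for the loss of its expression in some carcinomas. Several of these genes can be induced by NRF2, a transcription factor of the response to oxidative and electrophilic stress that is held in check by KEAP1.

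The libraries held 20042519 to 47972092 counts. PAX8, a marker of renal epithelium, was at 200 to 312 CPM (counts per 1000000 of the normalized library size) in the group means, and KRT8, KRT18, VIM and EPAS1 were also detected in every group. CA9, a hypoxia marker of this carcinoma, was at 1.29 CPM in A498 and at no more than 2 counts in any library of the other groups. NDUFA4L2, another marker of this carcinoma, was at only 0.474 to 0.573 CPM in the group means. Of 10 renal epithelial and clear cell carcinoma markers, 9 reached 1 CPM in A498 and 8 in each of the other groups. None of 11 T cell markers reached 1 CPM in any group. The summed level of 8 fibroblast and endothelial markers was 50.9 to 62.5 CPM in A498, 25.2 to 27.3 in resistant A498, 6.78 to 7.26 in 786-O and 11.2 to 11.7 in resistant 786-O, with COL1A1 leading in A498 and LUM elsewhere, and its part in the results was not tested. The libraries labelled resistant A498 stood closer to 786-O than to A498. Their median correlation of log2 CPM, taken across genes as a description, was 0.982 with resistant 786-O, 0.951 with 786-O and 0.87 with A498. Genes with at least 10 CPM in A498 and at most 3 counts in each library of 786-O (62, GSTM1 among them) had a median level in these libraries of 0.362% of that in A498, and 33 genes of the reverse pattern had 94.6% of their level in 786-O. The libraries thus go against their label, and whether they derive from A498 is in doubt. Resistant A498 stands below for the libraries labelled so, any direction drawn against A498 depends on that label, and called results on them are given against both parental lines, while the contrast of resistant 786-O with 786-O uses none of those libraries. Because no batch label was shared between groups, batch and group cannot be told apart.

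The mu class genes lie side by side on chromosome 1 and are close in sequence. In GRCh38 their canonical transcripts (GENCODE version 44) run in the order GSTM4 (109656099 to 109661700), GSTM2 (109668057 to 109675286), GSTM1 (109687817 to 109693745) and GSTM5 (109712251 to 109718268) on the plus strand, followed by GSTM3 (109733937 to 109741038) on the minus strand. The coding sequence of GSTM1 was identical to that of GSTM4 at 92.1% of aligned bases, to GSTM5 at 90.7%, to GSTM2 at 90.0% and to GSTM3 at 72.4%. The stretches below are shown because this likeness limits which gene a read can be given to. They are 60 bases of a homologous coding exon, exon 7 in GSTM1, GSTM2, GSTM4 and GSTM5 and exon 8 in GSTM3, read 5′ to 3′ on the strand of the gene, with bases that differ from GSTM1 in capitals. They lie at chr1:109690454-109690513 for GSTM1, chr1:109659000-109659059 for GSTM4, chr1:109715130-109715189 for GSTM5, chr1:109737508-109737567 for GSTM3 and chr1:109671473-109671532 for GSTM2.
GSTM1: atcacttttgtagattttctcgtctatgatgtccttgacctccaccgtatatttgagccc
GSTM4: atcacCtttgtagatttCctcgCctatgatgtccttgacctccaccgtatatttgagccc
GSTM5: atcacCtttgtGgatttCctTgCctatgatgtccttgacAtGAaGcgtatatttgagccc
GSTM3: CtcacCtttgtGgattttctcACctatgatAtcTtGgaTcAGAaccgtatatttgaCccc
GSTM2: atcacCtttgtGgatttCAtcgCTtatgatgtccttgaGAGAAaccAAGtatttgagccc
GSTM4 differed from GSTM1 at 3 of the 60 bases, GSTM5 at 9, GSTM3 at 13 and GSTM2 at 14. Over the whole canonical transcript, 58.3% of the 50-base windows of GSTM1 also occurred in a transcript of another gene, against 46.1% for GSTM2, 18.9% for GSTM4, 8% for GSTM5 and 2.01% for GSTM3. No such window was found in GSTP1, GSTK1, GSTA4 or GSTZ1. With the counting parameters stated for these data, read pairs aligned to several places are not counted, so the levels of GSTM1 and GSTM2 may be understated. The window shares do not give by how much, since the study's reads were paired and longer than 50 bases before trimming. The gene model of GSTM2 also holds 5112 exonic bases beyond the end of the canonical GSTM1 transcript, which counts per gene do not separate from the GSTM2 coding exons.

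GSTM1, whose enzyme conjugates a broad range of electrophiles, was transcribed at a clear level in A498 alone. It had 717, 475 and 564 counts in the A498 libraries, or 20.8, 22.1 and 20.7 CPM. No count was found in any library of resistant A498. The 786-O libraries had 0, 2 and 2 counts and those of resistant 786-O 0, 0 and 1. A498 thus lay far above the other 9 libraries, none of which had more than 2 counts. At the A498 level, 1553 counts would have been met in the libraries of resistant A498 together. With a floor of 3 counts per library, GSTM1 was at least 171-fold lower in resistant A498 than in A498. Since the rule that chose the set used the contrast with 786-O, no ratio to 786-O is given. Floors and intervals cover counting error only.

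GSTP1, the pi class enzyme, had the opposite pattern and was the most abundant member per length outside A498. Its canonical transcript of 7 exons lies on chromosome 11 (67583812 to 67586653, plus strand). There were 10, 10 and 5 counts in the A498 libraries, a mean of 0.313 ± 0.142 CPM (SD, n = 3). Resistant A498 stood at 469, 504 and 481 CPM, 786-O at 376, 358 and 356 and resistant 786-O at 450, 493 and 465. A498 therefore lay apart from all other libraries, and both resistant groups lay above 786-O and overlapped with each other. GSTP1 was higher in resistant A498 than in A498 (log2 fold change 10.64 ± 0.23, adjusted p = 6e-18, edgeR; throughout, ± after a log2 fold change is its standard error, and p is adjusted by Benjamini-Hochberg over all genes tested). As a ratio of pooled counts scaled by normalized library size this was 1610-fold, with a 95% exact counting interval of 1090 to 2490. Against 786-O, the same libraries were 1.33-fold higher (log2 fold change 0.42 ± 0.06, adjusted p = 1.1e-05, edgeR). In resistant 786-O the level was 1.29-fold that of 786-O (log2 fold change 0.37 ± 0.06, adjusted p = 3.3e-05, edgeR), but the change was 0 on the log2 scale and not called once trends with GC content and gene length were removed (adjusted p = 1, edgeR).

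**Figure D1:**
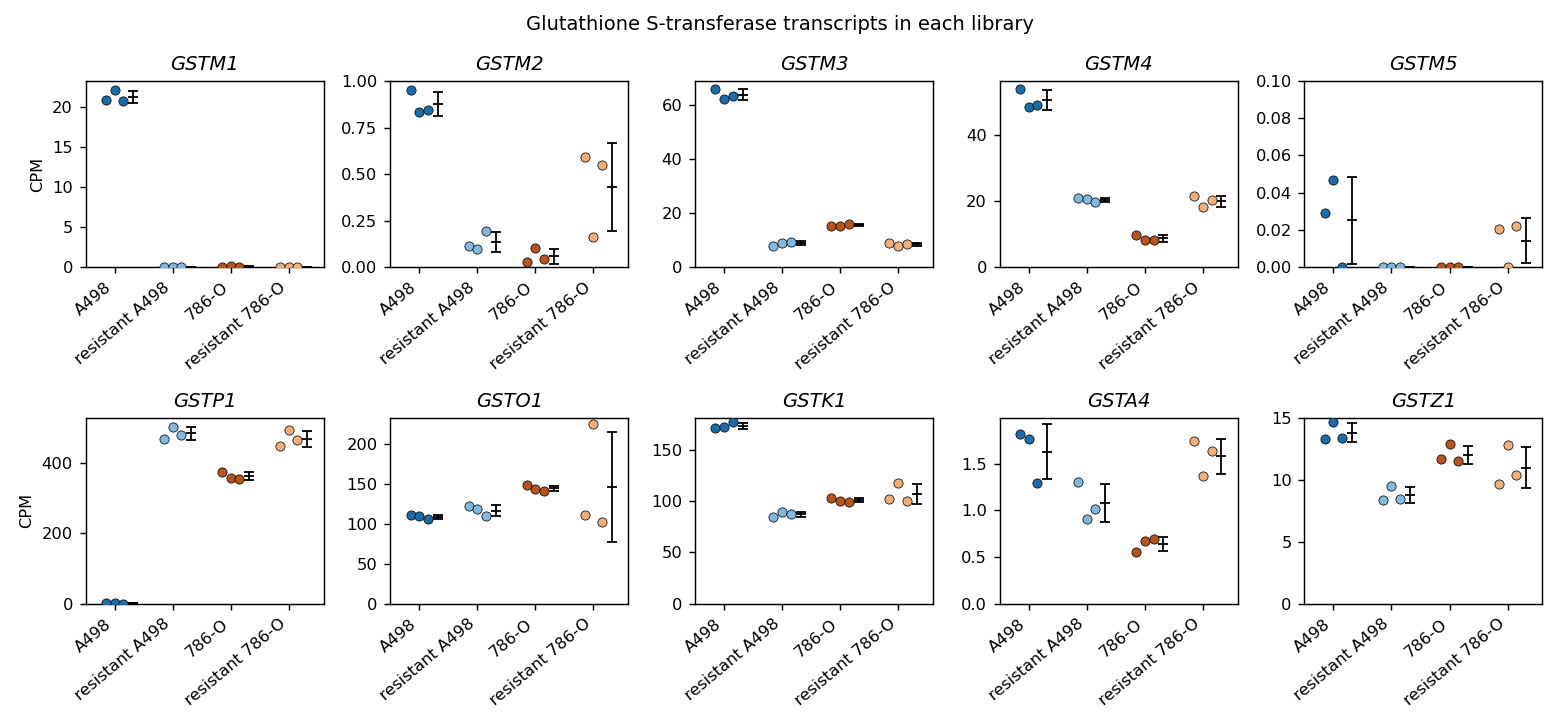
Level of each of the 10 members in CPM (linear axes from 0, each panel with its own scale) in the 12 libraries, with 1 point per library and, beside the points, the mean ± SD of 3 libraries. GSTM1 was at 20.7 to 22.1 CPM in A498 and at no more than 2 counts in any other library, whereas GSTP1 was at 0.184 to 0.465 CPM in A498 and at 356 to 504 CPM elsewhere.

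Genes around GSTP1 were transcribed in A498. Protein-coding neighbours with a mean of at least 1 CPM over the 12 libraries, the nearest 2 on one side and 3 on the other, were looked at after the values of GSTP1 were seen. On the lower side, PITPNM1 was at 32.6 ± 0.357 CPM in A498 and CDK2AP2 at 30.8 ± 1.32 (SD, n = 3). On the other side, NDUFV1, a subunit of respiratory complex I, was at 82.9 ± 1.61 CPM, NUDT8 at 4.68 ± 0.114 and ACY3 at 3.58 ± 0.284. In 786-O, PITPNM1, CDK2AP2 and NDUFV1 had higher means than in A498, at 60.6, 87.4 and 139 CPM. NUDT8 and ACY3 had lower means there, at 4.21 and 0.847 CPM. In resistant A498 the 5 genes were at 95, 69.6, 111, 5.23 and 3.66 CPM in the same order.

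The promoters of GSTM1 and GSTP1 are shown because these genes were at high levels in some groups and near 0 in others. They are the 250 bases before the RefSeq start of each gene in GRCh38, at chr1:109687567-109687816 for GSTM1 and chr11:67583562-67583811 for GSTP1, both on the plus strand. Capitals mark matches on either strand to TGACNNNGC, the core of the antioxidant response element bound by NRF2, and to GGGCGG, the GC box.
GSTM1: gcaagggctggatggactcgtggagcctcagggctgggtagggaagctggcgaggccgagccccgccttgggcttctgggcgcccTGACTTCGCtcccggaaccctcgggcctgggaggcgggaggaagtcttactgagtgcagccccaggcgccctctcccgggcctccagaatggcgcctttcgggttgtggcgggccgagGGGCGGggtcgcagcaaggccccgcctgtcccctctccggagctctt
GSTP1: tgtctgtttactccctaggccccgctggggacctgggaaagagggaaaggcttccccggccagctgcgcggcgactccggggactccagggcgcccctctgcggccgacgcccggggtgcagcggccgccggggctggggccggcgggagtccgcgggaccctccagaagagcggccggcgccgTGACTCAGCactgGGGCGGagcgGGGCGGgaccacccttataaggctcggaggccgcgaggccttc
The GSTM1 window held 1 match to TGACNNNGC and 1 to GGGCGG, and that of GSTP1 held 1 and 2. Of 27305 promoter windows of this length, 11% held TGACNNNGC and 42.3% held GGGCGG. Over all 10 members, GSTM1, GSTM5, GSTP1 and GSTA4 had 1 match to TGACNNNGC, GSTO1 had 2, and GSTM2, GSTM3, GSTM4, GSTK1 and GSTZ1 had none in these letters. The dinucleotide CG, counted after the values were seen, occurred 28 times in the GSTP1 window and 19 times in that of GSTM1, and 15.5% and 34.3% of all windows held at least as many. Binding and methylation were not measured.

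GSTM4, the mu class gene closest to GSTM1 in coding sequence, was at 53.9, 48.3 and 48.9 CPM in A498, at 20.8, 20.6 and 19.6 in resistant A498, at 9.71, 8.12 and 8.03 in 786-O and at 21.3, 18.1 and 20.1 in resistant 786-O. The order was thus A498, then the resistant groups, which overlapped, then 786-O. GSTM4 was at 0.403-fold in resistant A498 against A498 (log2 fold change -1.31 ± 0.08, adjusted p = 1.2e-09, edgeR). Against 786-O, however, it was 2.36-fold higher in resistant A498 (log2 fold change 1.24 ± 0.09, adjusted p = 1.1e-08, edgeR) and 2.3-fold higher in resistant 786-O (log2 fold change 1.20 ± 0.08, adjusted p = 9.4e-09, edgeR), comparisons that share the 786-O libraries. The resistant groups differed by 0.04 ± 0.08 on the log2 scale, which was not called (adjusted p = 0.75, edgeR).

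GSTM3, a mu class enzyme of more distant sequence, was at 65.8, 62.2 and 63.2 CPM in A498, at 7.9, 9 and 9.31 in resistant A498, at 15.3, 15.1 and 15.9 in 786-O and at 8.84, 7.63 and 8.51 in resistant 786-O. The libraries of A498 and of 786-O each lay apart from the rest, while those of the resistant groups overlapped. GSTM3 was at 0.137-fold in resistant A498 against A498 (log2 fold change -2.87 ± 0.07, adjusted p = 5.8e-14, edgeR). Against 786-O it was at 0.566-fold in resistant A498 (log2 fold change -0.82 ± 0.08, adjusted p = 2.3e-07, edgeR) and at 0.54-fold in resistant 786-O (log2 fold change -0.89 ± 0.07, adjusted p = 4.5e-08, edgeR). Within the same cluster, GSTM3 was thus lower and GSTM4 higher than in 786-O.

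GSTM2 was present at trace levels. Its counts were 33, 18 and 23 in A498, 3, 2 and 5 in resistant A498, 1, 4 and 2 in 786-O and 29, 7 and 25 in resistant 786-O. The A498 libraries lay above all others in CPM, and replicate 2 of resistant 786-O lay well below the other libraries of its group. GSTM2 passed the filter on low counts through A498 alone, so its log2 difference of -2.67 between resistant A498 and A498 is a description with no test. It was higher in resistant 786-O than in 786-O (log2 fold change 2.85 ± 0.68, adjusted p = 0.00033, edgeR), but with only those groups fitted it did not pass the filter. Between resistant A498 and 786-O no difference was called (log2 fold change 1.19 ± 0.83, adjusted p = 0.2, edgeR). GSTM5 had at most 1 count in every library, was at the floor in all groups, and did not pass the filter on low counts.

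**Figure D2:**
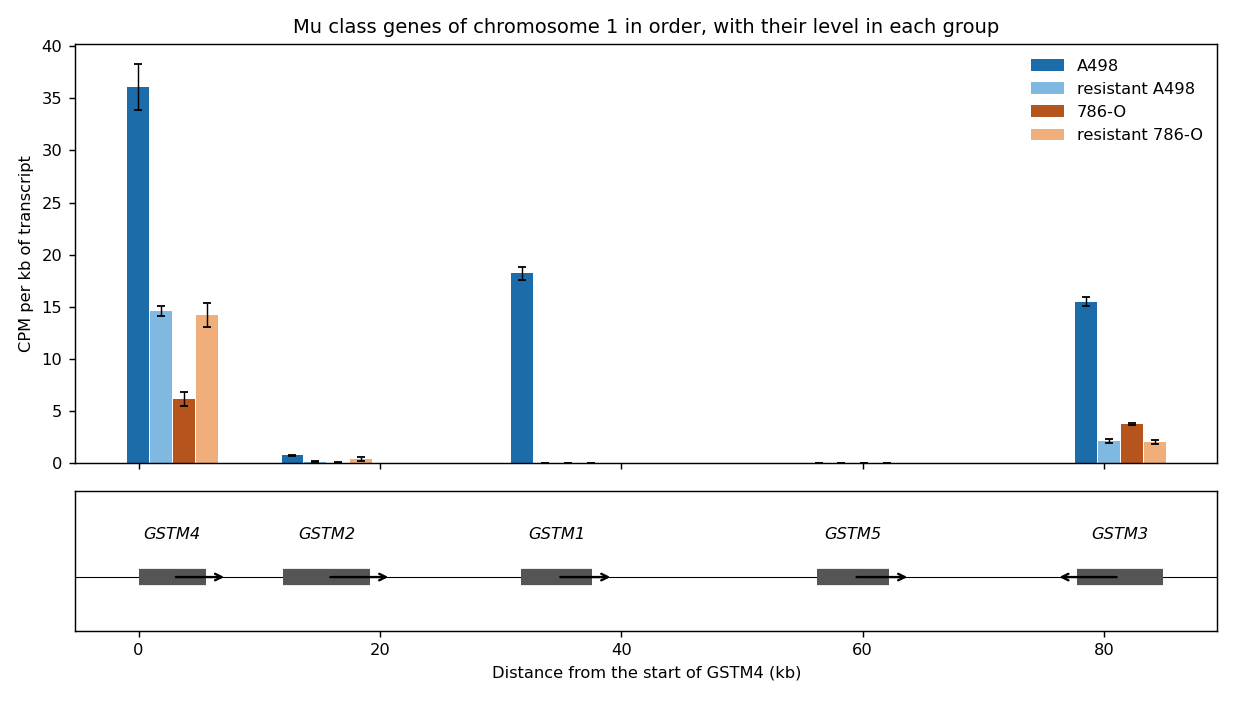
Mu class genes of chromosome 1. Bars at the position of each gene give the level in CPM per kb of canonical transcript (mean ± SD of 3 libraries per group), above a map whose horizontal axis is the distance in kb from the start of GSTM4 and whose arrows give the strand. In A498, GSTM4, GSTM1 and GSTM3 were at 36.1, 18.2 and 15.5 CPM per kb, and GSTM2 and GSTM5 at 0.754 and 0.0161.

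Genes beside the mu cluster were compared in the same way. Here and in the lists that follow, edgeR called 36.3% of all genes tested higher and 36.4% lower in resistant A498 against A498, 35% and 33.5% in resistant 786-O against 786-O, and 31.6% and 32.1% in resistant A498 against 786-O. Of 7 neighbours on the chromosome, 6 passed the filter. In resistant A498 against A498, 2 were higher and 3 lower, and in resistant 786-O against 786-O, 1 was higher and 4 were lower. Set against 786-O, 1 was higher and 4 were lower in resistant A498. CSF1, a growth factor of macrophages, was at 1230, 201, 341 and 365 CPM in A498, resistant A498, 786-O and resistant 786-O. AHCYL1 was at 404, 153, 206 and 110 CPM in the same order, and AMPD2, an AMP deaminase, at 187, 119, 254 and 114. AMPD2 had a higher mean in 786-O than in A498, unlike GSTM1 to GSTM4.

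GSTK1, the mitochondrial and peroxisomal enzyme, was at 172, 173 and 177 CPM in A498, at 84.6, 89.2 and 87.4 in resistant A498, at 103, 100 and 99.7 in 786-O and at 102, 118 and 100 in resistant 786-O. A498 lay above and resistant A498 below all other libraries, and those of 786-O and resistant 786-O overlapped. In resistant A498 the level was 0.5-fold that of A498 (standard error 0.06 on the log2 scale, adjusted p = 5.2e-10, edgeR). The difference from 786-O was small (log2 fold change -0.22 ± 0.06, adjusted p = 0.0042, edgeR) and was no longer called when libraries were scaled by their totals alone (-0.06, adjusted p = 0.32, edgeR). No change was called in resistant 786-O (log2 fold change 0.08 ± 0.06, adjusted p = 0.21, edgeR), though that scaling gave 0.23 and a call (adjusted p = 0.0018, edgeR).

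GSTO1, the omega class thiol transferase, was called in none of the comparisons by edgeR, with 1 library setting the spread. It was at 111, 109 and 106 CPM in A498, at 122, 118 and 109 in resistant A498 and at 148, 143 and 141 in 786-O. In resistant 786-O, replicate 2 was at 225 CPM and replicates 1 and 3 at 111 and 102. Replicate 2 stood apart over all genes too, since its log2 deviation from the mean of replicates 1 and 3 had an SD of 0.29 over 10085 genes, whereas replicates 1 and 3 deviated from each other with an SD of 0.12. GSTO1 did not pass the test in resistant 786-O with this library (log2 fold change 0.02 ± 0.20, adjusted p = 0.93, edgeR). Without it, GSTO1 was lower than in 786-O (-0.44 on the log2 scale, adjusted p = 9.1e-11, edgeR). Between resistant A498 and 786-O the libraries did not overlap and the log2 difference of -0.31 was not called (adjusted p = 0.2, edgeR), but it was called with only those groups fitted (-0.27, adjusted p = 3.9e-07, edgeR).

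GSTA4, an alpha class enzyme with a preference for the lipid peroxidation product 4-hydroxynonenal, was low throughout. It was at 1.82, 1.77 and 1.29 CPM in A498, at 1.3, 0.909 and 1.02 in resistant A498, at 0.552, 0.672 and 0.688 in 786-O and at 1.74, 1.37 and 1.64 in resistant 786-O. The 786-O libraries were below all others, and those of A498 overlapped with both resistant groups. GSTA4 rose 2.47-fold in resistant 786-O (log2 fold change 1.31 ± 0.20, adjusted p = 3.2e-05, edgeR). In resistant A498 it was lower than in A498 (log2 fold change -0.58 ± 0.21, adjusted p = 0.021, edgeR) and higher than in 786-O (log2 fold change 0.76 ± 0.23, adjusted p = 0.0087, edgeR). The difference from A498 was lost when A498 replicate 1 or 2 or resistant A498 replicate 2 or 3 was left out (-0.47, -0.53, -0.45 and -0.50 on the log2 scale, adjusted p = 0.097, 0.06, 0.1 and 0.084, edgeR). Without resistant A498 replicate 1, the difference from 786-O was 0.62 and not called (adjusted p = 0.055, edgeR).

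GSTZ1, of tyrosine breakdown, was at 13.3, 14.7 and 13.4 CPM in A498, at 8.35, 9.52 and 8.49 in resistant A498, at 11.7, 12.9 and 11.5 in 786-O and at 9.68, 12.8 and 10.4 in resistant 786-O. Resistant A498 lay below all other libraries, and those of 786-O and resistant 786-O overlapped. GSTZ1 was lower in resistant A498 than in A498 (log2 fold change -0.65 ± 0.11, adjusted p = 6e-05, edgeR) and than in 786-O (log2 fold change -0.46 ± 0.11, adjusted p = 0.0015, edgeR). It did not pass the test in resistant 786-O (log2 fold change -0.13 ± 0.10, adjusted p = 0.24, edgeR), but without replicate 2 it was lower there (-0.26, adjusted p = 0.0031, edgeR).

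Counted together, 9 of the 10 members passed the filter, GSTM1 and GSTM2 through A498 alone, and the 8 other than GSTM1 entered the counts. In resistant A498 against A498, 7 of 8 were called, where edgeR called 72.7% of all 19929 genes tested. Of these, 6 were lower and 1 higher (36.4% and 36.3% of all genes). GSTM2, which had to be high in A498 to be counted, is among the lower. It also enters the median, the count of members whose libraries did not overlap, the count over 2-fold and the difference between the changes given below. In resistant 786-O against 786-O, 5 of 8 were called against 68.5% of all genes, 4 higher and 1 lower (35% and 33.5%). Between resistant A498 and 786-O, 6 of 8 were called against 63.6% of all genes, 3 higher and 3 lower (31.6% and 32.1%). Between the resistant groups 4 of 8 members were called, GSTM2, GSTK1, GSTA4 and GSTZ1, all lower in resistant A498, where 46.1% of all genes were called and 23% were lower. The libraries of GSTM2 overlapped, and with only those groups fitted it did not pass the filter. In that fit GSTK1 was called (adjusted p = 0.013, edgeR), but GSTA4 and GSTZ1 were not (adjusted p = 0.06 and 0.068, edgeR). The members are few and were chosen with results known, so these shares were not tested against those of all genes. The median log2 fold change of the 8 members was -0.82 in resistant A498 against A498 and 0.22 in resistant 786-O against 786-O, beside 0 and 0.03 over all genes. Libraries did not overlap between groups for 6 of 8 members in the first of these comparisons and 5 of 8 in the second (78.5% and 68.9% of all genes). They did not overlap for 7 of 8 between resistant A498 and 786-O and for 3 of 8 between the resistant groups (73.4% and 51.7% of all genes). With more than a 2-fold change also asked for, 4 members remained in resistant A498 against A498 (30.8% of all genes), 3 in resistant 786-O against 786-O (22%), 1 between resistant A498 and 786-O (20%), 1 between the resistant groups (7.3%) and 6 for the difference between the changes (35.1%). The changes in the 2 cell lines differed in 7 of 8 members when that difference was itself tested, 6 lower and 1 higher in A498, and in 68.3% of all genes (34.4% lower and 33.9% higher). GSTM4 and GSTA4 were lower in resistant A498 than in A498 and higher in resistant 786-O than in 786-O, and the values of GSTM2 had the same signs.

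**Figure D3:**
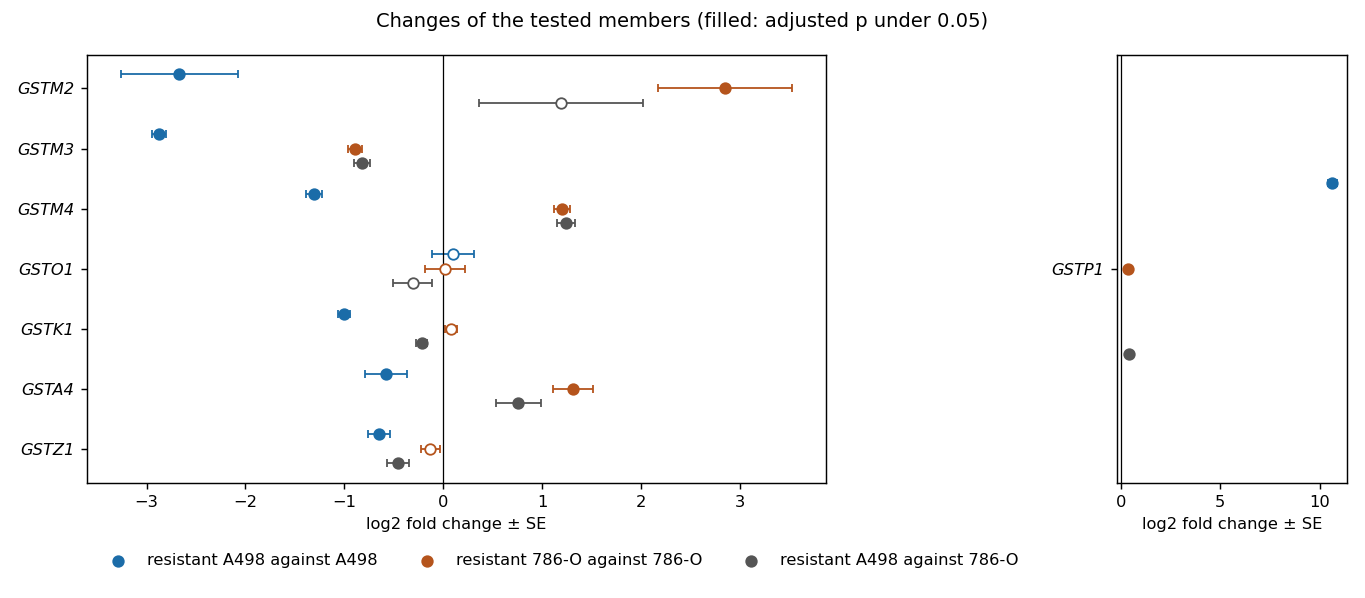
Log2 fold changes (points) with standard errors (bars) of the 8 tested members in resistant A498 against A498, in resistant 786-O against 786-O and in resistant A498 against 786-O, with GSTP1 on an axis of its own. Filled points have an adjusted p under 0.05 (edgeR), and those of GSTM4 lie at -1.31, 1.20 and 1.24. GSTM2 passed the filter on low counts through A498 alone. Its filled point for resistant A498 against A498 is therefore a description with no test.

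Levels per kb of canonical transcript were used to set members beside each other. In A498, GSTK1 made up 43.7% ± 1.05 of the sum over the 10 members and GSTO1 34.6% ± 0.575 (SD, n = 3), with GSTM4 at 9.37%, GSTM1 at 4.72%, GSTM3 at 4.01% and GSTP1 at 0.109%. In 786-O, GSTP1 made up 62.4% ± 0.221, followed by GSTO1 at 22.5% and GSTK1 at 12.5%. GSTP1 also led in resistant A498 (72.2% ± 0.898) and in resistant 786-O (67.6% ± 5.41). The sum was 389, 385 and 383 CPM per kb in the A498 libraries, 890, 937 and 892 in resistant A498, 810, 776 and 771 in 786-O and 870, 1080 and 878 in resistant 786-O. Without GSTP1 it was 385 ± 2.9, 252 ± 8.22, 296 ± 6.35 and 311 ± 93.8 in the same order, so that A498 passed from the lowest mean to the highest.

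**Figure D4:**
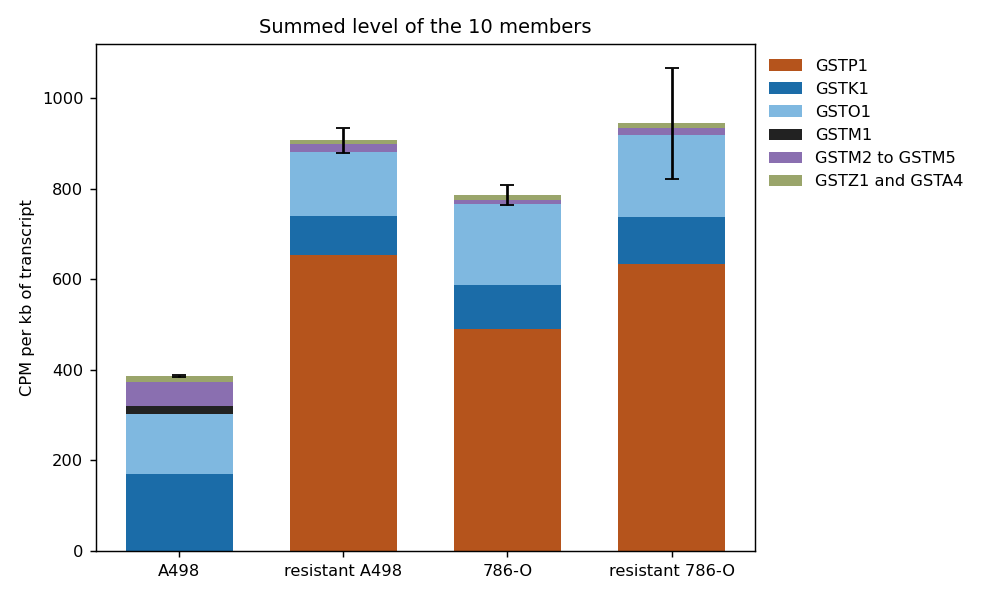
Sum of the 10 members in CPM per kb of canonical transcript in each group, stacked by member, with error bars for the SD of the sum over 3 libraries. GSTP1 makes up 62.4% to 72.2% of the bars other than that of A498, where it makes up 0.109%.

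Over the 12 libraries, the genes whose log2 CPM followed GSTM1 most closely, among genes with at least 1 CPM in A498, were UBXN10 (r = 0.9977), GATA5 (0.9977), ENSG00000267984 (0.9975), ZFP42 (0.9974) and EN1 (0.9972). These correlations rest on the gap between A498 and the other 9 libraries. ZFP42, a zinc finger protein of pluripotent cells, was at 32.9 CPM in A498, and UBXN10 at 7.7 CPM. GATA5 and EN1, both developmental transcription factors, were at 2.87 and 4.84 CPM. None of these 4 had more than 2 counts in any library of the other groups, whereas ENSG00000267984 reached 765 counts in resistant 786-O. UBXN10 lies on chromosome 1, as GSTM1 does, and the others on chromosomes 20, 19, 4 and 2.

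The remaining genes of the glutathione pathway were taken from lists of known function. Of 11 other soluble transferase genes, GSTT1 was not analysed here, 10 were in the table, and GSTCD, GSTO2 and GSTT2B passed the filter. The alpha class genes GSTA1, GSTA2, GSTA3 and GSTA5 had at most 4 counts in any library. GSTO2, the second omega class gene, was at 0.956, 0.475, 0.318 and 0.294 CPM in A498, resistant A498, 786-O and resistant 786-O, and was called lower in resistant A498 than in A498 (-1.01 on the log2 scale, adjusted p = 0.0081, edgeR) but not called against 786-O (0.57, adjusted p = 0.16, edgeR). GSTT2B, of the theta class, had no count in A498 and was at 0.502 ± 0.0854 CPM in resistant A498, 0.258 ± 0.0504 in 786-O and 1.06 ± 0.0595 in resistant 786-O (SD, n = 3). Its value is uncertain because GSTT2 is a near-identical copy.

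Membrane-bound transferases belong to the MAPEG family, of which 5 of 6 genes passed the filter. In resistant A498 against A498, 1 was higher and 4 were lower, while in resistant 786-O against 786-O, 4 were higher and 1 was lower. Set against 786-O, resistant A498 also had 4 higher and 1 lower. MGST1, which protects membranes from lipid peroxides, was at 475, 266, 156 and 217 CPM in A498, resistant A498, 786-O and resistant 786-O. MGST2 was at 31, 16.5, 8.29 and 15.7 CPM in the same order, and MGST3 at 53, 62.2, 45.1 and 66.7. MGST1 and MGST2 were called lower in resistant A498 than in A498 (-0.84 and -0.91 on the log2 scale) and higher in resistant 786-O than in 786-O (0.48 and 0.92). Against 786-O, however, both were called higher in resistant A498 too (0.77 and 1.00, adjusted p = 1.1e-07 and 1.7e-07, edgeR), as GSTM4 was. MGST3 was called higher in all 3 comparisons (0.23, 0.57 and 0.46).

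Glutathione synthesis and recycling was represented by 12 tested genes of 14. In resistant A498 against A498, 1 was higher, 8 were lower and 3 were not called. In resistant 786-O against 786-O, 5 were higher, 5 lower and 2 not called. Set against 786-O, 6 were higher, 4 lower and 2 not called in resistant A498. SLC7A11, which imports the cystine that glutathione is made from, was at 271, 85.2, 52.2 and 57.6 CPM in A498, resistant A498, 786-O and resistant 786-O. SLC3A2, its partner in the membrane, was at 858, 805, 545 and 658 CPM, and GSR, glutathione reductase, at 302, 82.3, 70.5 and 56.6. GSR was called lower in resistant A498 than in A498 and in resistant 786-O than in 786-O (-1.87 and -0.32 on the log2 scale), and SLC7A11 was called lower in the first and higher in the second (-1.67 and 0.14). Against 786-O, GSR and SLC7A11 were both called higher in resistant A498 (0.22 and 0.71, adjusted p = 0.0016 and 1.8e-08, edgeR).

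Among 5 tested glutathione peroxidases, 1 was higher and 3 were lower in resistant A498 against A498, and 2 were higher and 2 lower in resistant 786-O against 786-O. The lower genes against A498 include GPX2, which had at most 11 counts in a library and passed the filter on low counts through A498 alone. Its log2 difference there, -3.36, is therefore a description with no test. Set against 786-O, 2 were higher and 2 lower in resistant A498. GPX4, which reduces lipid hydroperoxides in membranes, was higher in the first pair of comparisons (1.27 and 0.64 on the log2 scale, adjusted p = 2.3e-12 and 9.6e-09, edgeR), at 174, 419, 325 and 506 CPM in A498, resistant A498, 786-O and resistant 786-O, and was also higher in resistant A498 than in 786-O (0.37, adjusted p = 4.2e-06, edgeR). GPX1 was at 313, 297, 333 and 379 CPM in the same order, and GPX8 at 169, 78.5, 64.9 and 55.9. GPX3, the secreted enzyme made in kidney tubules, which is named here after its values were seen, was at 262, 2.31, 15.3 and 2.18 CPM.

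Export of conjugates and the later steps to mercapturates held 10 tested genes of 13. In resistant A498 against A498, 3 were higher and 5 lower, and in resistant 786-O against 786-O, 7 were higher and 2 lower. Set against 786-O, 8 were higher and 2 not called in resistant A498. The higher genes of each comparison include DPEP1, which had at most 9 counts in a library and passed the filter on low counts through resistant A498 alone. Its log2 differences of resistant A498 from A498 and from 786-O, 2.06 and 4.75, are therefore descriptions with no test. The exporter ABCC1 was at 221, 152, 120 and 152 CPM in A498, resistant A498, 786-O and resistant 786-O, and the exporter ABCC3 at 310, 85.8, 56 and 161. ANPEP, an aminopeptidase, was at 960, 69, 52.6 and 118 CPM. These 3 genes were called lower in resistant A498 than in A498 (-0.54, -1.86 and -3.80 on the log2 scale) and higher in resistant 786-O than in 786-O (0.34, 1.53 and 1.17). Against 786-O, all 3 were called higher in resistant A498 as well (0.34, 0.61 and 0.39).

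NRF2 (NFE2L2), its regulators and its marker targets comprised 11 tested genes. In resistant A498 against A498, where 36.4% of all genes were lower, 10 of them were lower and the remaining gene, BACH1, was not called. In resistant 786-O against 786-O, 5 were higher and 5 lower. Between resistant A498 and 786-O, 4 were higher, 3 lower and 4 not called. TXNRD1, thioredoxin reductase, was at 1910, 627, 645 and 525 CPM in A498, resistant A498, 786-O and resistant 786-O. NQO1, a quinone reductase, was at 1150, 176, 256 and 168 CPM in the same order. A498 had the highest mean of the 4 groups in both genes, as it had in GSTM1 to GSTM4, GSTK1, GSTA4, GSTZ1, MGST1 and SLC7A11. The same held for CSF1 and AHCYL1, which lie beside the mu cluster. It did not hold for GSTO1 or MGST3, and GSTP1 was near 0 in A498. Whether these levels share a cause was not tested.

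**Figure D5:**
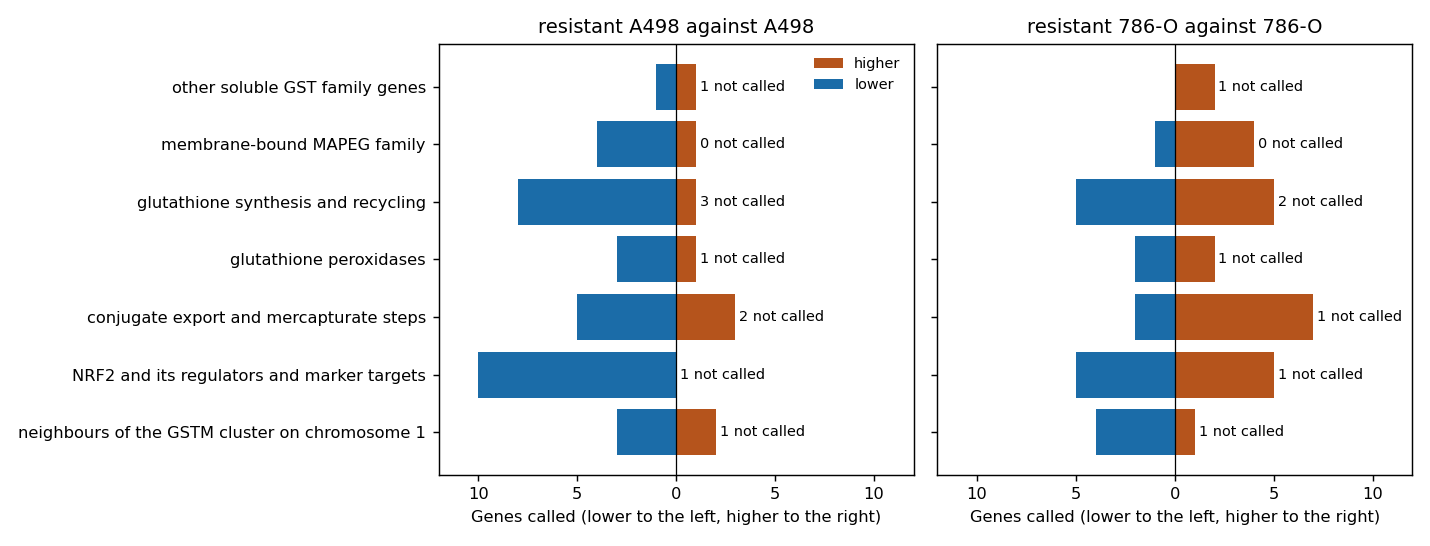
Number of genes called higher (to the right) and lower (to the left) in each list of glutathione pathway genes and in the neighbours of the mu cluster, for resistant A498 against A498 and for resistant 786-O against 786-O, with the number not called beside each bar. In the NRF2 list, 10 genes were lower in resistant A498, and 5 were higher and 5 lower in resistant 786-O. Over all genes, 36.4% were lower in the first comparison, and 35% were higher and 33.5% lower in the second. The bars for resistant A498 against A498 include GPX2 (lower) and DPEP1 (higher), in the lists of peroxidases and of conjugate export. GPX2 passed the filter on low counts through A498 alone and DPEP1 through resistant A498 alone, so both are descriptions there. Resistant A498 against 786-O is not drawn. There, 4 genes of the NRF2 list were higher, 3 lower and 4 not called, beside 31.6% higher and 32.1% lower over all genes.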

How the data were processed

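mRNA was sequenced from 12 libraries, assigned to 4 groups by their labels. The authors deposited raw counts, 1 per gene and library, with no normalization. Per the submitters' processing notes and the study's methods, read pairs from a stranded kit were trimmed (Trimmomatic 0.36.6), aligned to GRCh38 (HISAT2 2.1.0) and counted over exons (featureCounts 1.6.3, GENCODE version 33, mapping quality of at least 12). Protein-coding genes held 94.9% to 95.5% of the counts. This share alone cannot settle which strand was counted, and that was not tested. Positions are from GENCODE version 44 on the same assembly, and 45283 of 45478 genes matched a symbol.

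From these counts, edgeR 4.0.16 in R 4.3.3 gave the tests (filterByExpr, TMM scaling, quasi-likelihood fit of all 12 libraries with a mean per group, prior count 0.125, Benjamini-Hochberg adjustment over 19929 genes, called under 0.05). The study compared counts directly with an unadjusted test, which was replaced because depth differed. Sequences were compared with Biopython 1.88. Alternatives were DESeq2 1.42.0, library-size scaling, other filters and prior counts, single contrasts, thinned counts, a GC and length correction, a replicate block and leaving out each library. The code was tested on simulated data. The members and lists were chosen with earlier results of these data known. All members are named, and of each list the 3 genes of highest mean CPM and any gene a result turns on, except that some genes are not reported here.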

Additional observations from a re-analysis of the deposited data

Results flagged for a closer look

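In 7 members the change between parental and resistant cells was not the same in A498 and in 786-O, by edgeR's test of the difference between the 2 log2 fold changes (A498 minus 786-O), adjusted over all genes tested. The difference was 10.27 for GSTP1 (adjusted p = 1.1e-16, edgeR), -5.52 for GSTM2 and -2.52 for GSTM4 (adjusted p = 7.6e-11, edgeR). It was -1.98 for GSTM3 (adjusted p = 2.7e-10, edgeR), -1.89 for GSTA4 (adjusted p = 3.4e-05, edgeR), -1.08 for GSTK1 (adjusted p = 1.4e-08, edgeR) and -0.52 for GSTZ1 (adjusted p = 0.0055, edgeR). After correction for GC content and gene length, the difference for GSTZ1 was -0.33 and not called (adjusted p = 0.07, edgeR). The value of GSTM2, one of the 7, is given as a description with no p, since the gene passed the filter on low counts through A498 alone. All these values rest on the libraries labelled resistant A498, which stood closer to 786-O than to A498 and whose origin is in doubt. Set against 786-O, the log2 fold changes of GSTP1, GSTM4, GSTM3 and GSTA4 were 0.42, 1.24, -0.82 and 0.76 in resistant A498, beside 0.37, 1.20, -0.89 and 1.31 in resistant 786-O, comparisons that share the 786-O libraries. After correction for GC content and gene length, however, GSTP1 was 0.38 in resistant A498 and 0 in resistant 786-O, each against 786-O. It was then called higher in resistant A498 than in resistant 786-O (0.38, adjusted p = 5e-05, edgeR).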

How the results depend on the processing

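Of 627 values of tested members under an alternative, 578 kept their direction and their side of the threshold. With a minimum of 1 set on the absolute log2 fold change, 4 members were called in resistant A498 against A498, 3 in resistant 786-O against 786-O, 1 between resistant A498 and 786-O and 1 between the resistant groups. The count against A498 includes GSTM2, whose value there is a description. With only the groups compared in the fit, 1 was called between the resistant groups. Leaving out each library gave 6 to 7, 5 to 7, 5 to 6 and 2 to 4 members called in the same order, the last falling to 2 without resistant A498 replicate 1, 2 or 3 or resistant 786-O replicate 1, and 7 to 8 for the difference between the changes. Several log2 values changed sign, and the cause was not tested. With trends with GC content and gene length removed, GSTP1 in resistant 786-O was 0, and GSTO1 was -0.04 in resistant A498 against A498 and -0.08 for the difference between the changes, which was 0 with at least 10 counts required in every library. That trend correction called 3 members higher and 2 lower in resistant 786-O, and 6 for the difference between the changes. GSTZ1 in resistant 786-O was 0.01 with scaling by library size alone, which moved the median of all genes by 0.14 there and by 0.15 between resistant A498 and 786-O. Without single libraries, GSTO1 ranged from -0.44 to 0.24 in resistant 786-O, from -0.52 to 0.12 between the resistant groups and from -0.11 to 0.54 for the difference between the changes, and GSTM4 from -0.03 to 0.10 between the resistant groups. Replicate numbers were not taken as pairs, since same-numbered libraries deviated with correlations of -0.18 to 0.2. With the replicate number as a block, GSTO1 in resistant 786-O was -0.03, and 7, 5, 6, 4 and 7 members were called, as without the block. The fit of single contrasts gives no value of its own for the difference between the changes. Depth limits GSTM2, GSTM5 and GSTA4, which had at most 33, 1 and 85 counts in a library.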
